A study of Mus musculus with 9 samples.

Results

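A set of 10 genes that mark the stem cells at the base of the intestinal crypt were followed through colonies of mouse intestinal stem cells grown in 3 matrices. The markers, fixed by name, were Lgr5, Lgr4, Ascl2, Olfm4, Smoc2, Tnfrsf19, Rgmb, Sox9, Lrig1 and Msi1, and each symbol was matched to its Ensembl identifier. They make up 10 of the 46517 genes in the count tables. All 10 passed the filter on low counts, beside 14870 tested genes in all.

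Polyadenylated RNA was sequenced from colonies collected on day 4, with 3 libraries per matrix and 9 in all. The matrices were a polyethylene glycol (PEG) hydrogel that cells cannot degrade, called non-degradable PEG, a PEG hydrogel that cells can degrade, called degradable PEG, and Matrigel, a basement membrane extract made by a mouse tumour. Stem cells were dissociated before embedding, and every matrix, Matrigel included, received R-spondin, noggin, EGF, the GSK3 inhibitor CHIR99021 and the histone deacetylase inhibitor valproic acid. The question that the design poses is how colonies in a synthetic gel differ from colonies in Matrigel, and how the gel's degradability bears on them. The labels used here do not state the genotype, strain or age of the source animals, nor whether replicate libraries go back to different cultures or animals. A p-value therefore measures spread among libraries that may be technical replicates.

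Crypt base columnar cells divide steadily and renew the whole epithelium. R-spondins bind the receptors Lgr4 and Lgr5 and keep Wnt receptors on the cell surface, which sustains beta-catenin signalling, while noggin blocks BMP signals and EGF drives growth. CHIR99021 stabilises beta-catenin inside the cell, and with valproic acid it is known to hold intestinal organoids in a stem cell state with few differentiated cells.

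Libraries held 38016227 to 47211981 reads assigned to genes, and mitochondrially encoded genes took 3.003% to 4.51% of them. Degradable PEG libraries held fewer assigned reads, 38016227 to 39187379, than Matrigel libraries, 39558344 to 47211981 (exact permutation p = 0.1, two-sided, the smallest that 3 against 3 libraries allow). Markers of the intestinal epithelium summed to 5238 to 6198 CPM, counts scaled by TMM-adjusted library size, in non-degradable PEG, 5829 to 6472 in degradable PEG and 5183 to 5404 in Matrigel, over 8 genes. Markers of cells outside the epithelium were low but not all absent. The sum over 8 mesenchymal genes was 5.17 to 9.43 CPM across the 9 libraries. The sum over 6 blood cell genes was 2.90 to 3.91 CPM in non-degradable PEG, 1.88 to 2.58 CPM in degradable PEG and 1.28 to 1.69 CPM in Matrigel. Most of it came from Itgam, an integrin gene of myeloid cells, which stood at 2.77 to 3.83 CPM in non-degradable PEG and 1.24 to 1.64 CPM in Matrigel, 2.33-fold higher (adjusted p = 0.00311 by edgeR), and its part in the results was not tested. Ptprc, Cdh5, Col3a1 and Lum, markers of blood, endothelial and mesenchymal cells, had no count in any library, but other genes of these lists did.

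The stem cell markers did not move as a block. Against Matrigel, colonies in non-degradable PEG had higher Ascl2 and Sox9 and lower Olfm4, Smoc2 and Rgmb, and colonies in degradable PEG had higher Ascl2 and Sox9 and lower Smoc2. Lgr5, the gene for which these cells are best known, passed the threshold in neither comparison. In bulk RNA, fewer cells of a type and less RNA per cell cannot be told apart. Calls rest on edgeR's quasi-likelihood test with Benjamini-Hochberg adjustment over all tested genes, at an adjusted p under 0.05.

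For non-degradable PEG against Matrigel, 5 of 10 markers passed, where 16.8% of all tested genes did. Of these, 2 lay on the high and 3 on the low side, beside 9.71% and 7.13% of tested genes on those sides. The libraries of the 2 matrices did not overlap for 2 markers on the high side and 4 on the low side, and for 43.4% of tested genes. With the replicate number as a block, 6 markers and 26.1% of tested genes passed. Only 3 markers passed without non-degradable PEG replicate 3 or without Matrigel replicate 3. For degradable PEG against Matrigel, 3 of 10 markers passed, where 12.2% of tested genes did. Here 2 were higher and 1 lower, with 7.42% of tested genes higher and 4.79% lower, and the libraries did not overlap for 2 markers on each side and for 30.4% of tested genes. Without degradable PEG replicate 1, 5 markers passed. The number of all genes called also moved when a library was left out, so the marker counts of such fits do not single out the markers. The 2 comparisons share the Matrigel libraries. For non-degradable against degradable PEG, 0 of 10 markers passed by edgeR's main fit, where 1.28% of tested genes did, 0.814% higher and 0.464% lower. DESeq2 called 3 markers and 3.42% of tested genes, and 6 markers and 14.8% of tested genes had an unadjusted p under 0.05 by edgeR. The libraries did not overlap for 1 marker on the high side and 3 on the low side, and for 19.0% of tested genes.

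**Figure D1:**
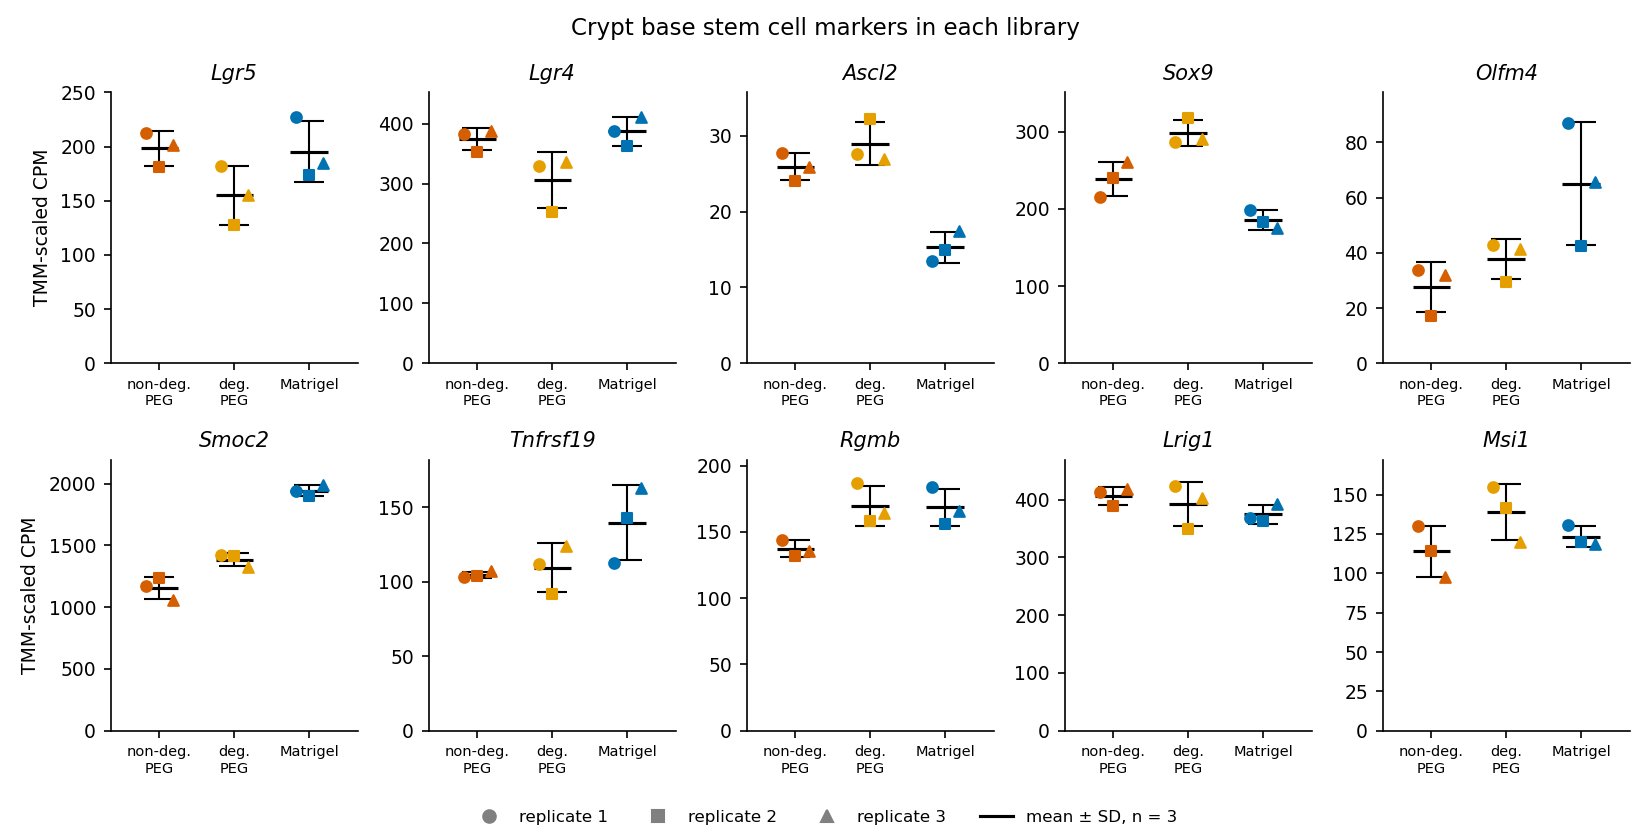
Level of each marker in TMM-scaled CPM (vertical axes, from 0) in each library of non-degradable PEG, degradable PEG and Matrigel, with the mean and SD of 3 libraries in black and the replicate number as the point's shape. The Matrigel points lie below all 6 PEG points for Ascl2 and Sox9 and above them for Smoc2, while those of Lgr5 overlap with both PEG gels.

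**Figure D2:**
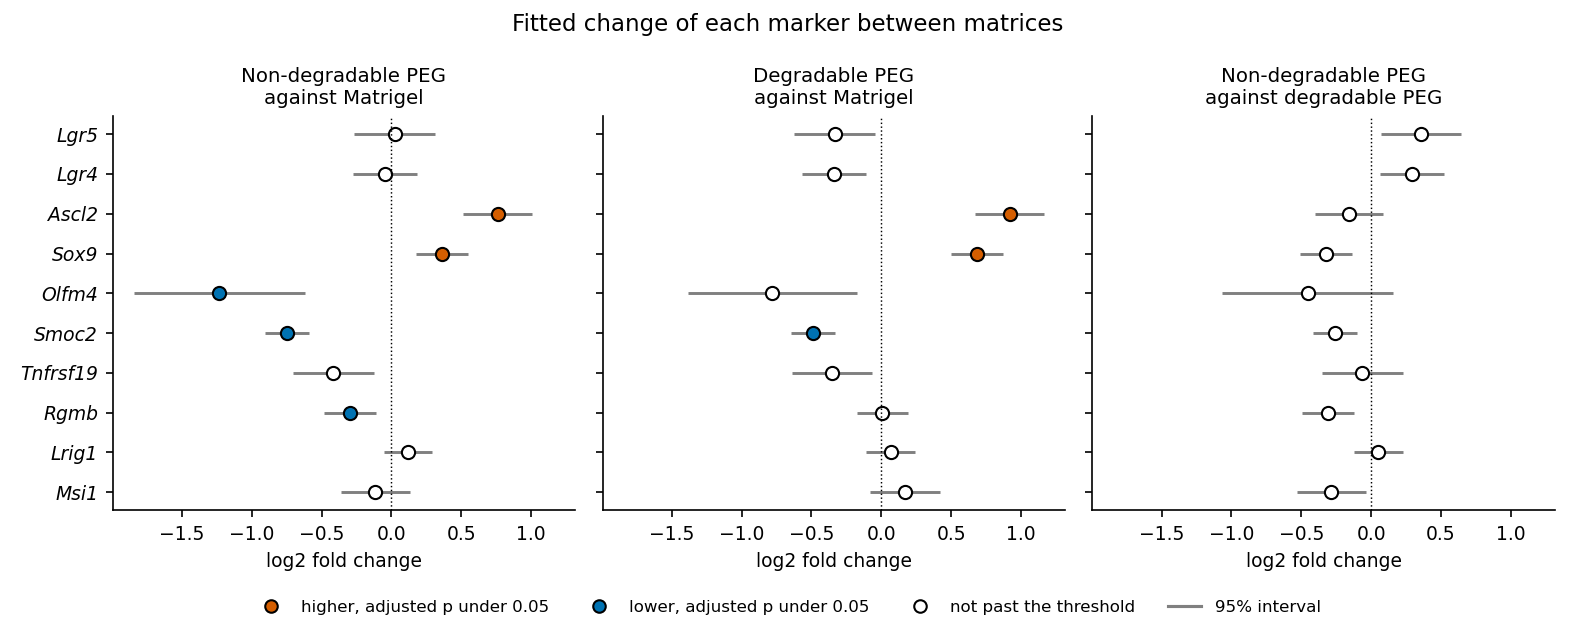
Fitted log2 fold change of each marker (horizontal axes) in the 3 comparisons, with its 95% interval as a grey line. Filled points passed an adjusted p of 0.05, orange where higher and blue where lower. Ascl2 at 0.76 and 0.92 stands furthest to the right against Matrigel and Olfm4 at -1.23 and -0.78 furthest to the left, and no point is filled between the PEG gels.

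Promoter sequence is shown for 3 markers, Ascl2 and Olfm4 because their levels moved furthest in opposite directions between non-degradable PEG and Matrigel, and Tnfrsf19 because 1 of its promoters held a TCF/LEF match. Sequences come from RefSeq on GRCm38.p6 and span 250 bases before to 50 bases after a start site, 300 bases in all, 5′ to 3′ on the gene's strand. Of the 10 markers, 6 matched the promoter table, with 9 promoters between them, and Lgr5, Smoc2, Sox9 and Msi1 are named only. The Ascl2 promoter lies at chr7:142969215-142969514 on the minus strand, that of Olfm4 at chr14:80000052-80000351 on the plus strand, and the downstream promoter of Tnfrsf19 at chr14:61037938-61038237 on the minus strand. Capitals mark matches to the TCF/LEF letters CTTTGAT, the site of the factors that act with beta-catenin, or the RBPJ letters TGGGAA, the site of the factor that acts with Notch, on either strand.
Ascl2: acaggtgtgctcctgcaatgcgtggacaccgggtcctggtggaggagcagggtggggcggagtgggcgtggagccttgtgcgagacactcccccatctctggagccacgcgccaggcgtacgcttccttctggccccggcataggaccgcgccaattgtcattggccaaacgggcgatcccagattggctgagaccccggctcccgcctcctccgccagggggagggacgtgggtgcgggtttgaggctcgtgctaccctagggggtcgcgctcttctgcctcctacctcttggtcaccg
Olfm4: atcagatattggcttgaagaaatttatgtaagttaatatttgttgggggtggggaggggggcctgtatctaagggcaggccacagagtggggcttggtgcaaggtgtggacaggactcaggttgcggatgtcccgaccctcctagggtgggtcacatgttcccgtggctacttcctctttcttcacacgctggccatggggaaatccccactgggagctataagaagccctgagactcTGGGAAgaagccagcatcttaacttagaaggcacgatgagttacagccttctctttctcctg
Tnfrsf19: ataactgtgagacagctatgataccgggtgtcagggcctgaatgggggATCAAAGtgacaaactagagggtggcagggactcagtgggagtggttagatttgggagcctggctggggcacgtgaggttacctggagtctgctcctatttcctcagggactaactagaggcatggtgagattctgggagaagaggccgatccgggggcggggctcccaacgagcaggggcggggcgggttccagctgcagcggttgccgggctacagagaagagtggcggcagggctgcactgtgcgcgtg
The RBPJ letters of the Olfm4 window begin 12 bases before the start site. The TCF/LEF match of Tnfrsf19, read as ATCAAAG on the printed strand, begins 202 bases before the start site. The Ascl2 window held neither set of letters. Across all 32851 promoters of the same length, 3.73% held CTTTGAT and 25.6% held TGGGAA, and of the 9 marker promoters 1 held each. Searched on both strands as well were the AP-1 letters TGANTCA, found in none of the 9 and in 7.81% of all promoters, the E-box CAGCTG, found in the printed Tnfrsf19 promoter 10 bases before the start and in 16.3% of all, and the HIF core ACGTG, found in 5 of the 9 and in 19.6% of all. These 5 are not independent, since the Rgmb windows at chr17:15831197-15831496 and chr17:15831016-15831315 overlap. The same HIF match lies in both, 58 bases before the start of the first and 239 bases before that of the second. The HIF letters occur once in the Ascl2 window, 23 bases before the start, and in the printed Tnfrsf19 window the matches of both strands overlap 133 and 132 bases before it. Such matches describe letters and were not tested for binding.

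The R-spondin receptors come first. Lgr5 (ENSMUSG00000020140, GRCm38 chromosome 10, 115450311 to 115587780, minus strand) encodes the R-spondin receptor confined in the intestine to crypt base columnar cells. Lgr5 stood at 212, 181 and 201 CPM in non-degradable PEG, 182, 128 and 155 CPM in degradable PEG and 227, 174 and 185 CPM in Matrigel, in the order of replicates 1 to 3. Every matrix overlapped with each of the others. Its log2 fold change was 0.02 ± 0.131 (SE) for non-degradable PEG against Matrigel, with a 95% interval of -0.27 to 0.31 and an adjusted p of 0.927 by edgeR's quasi-likelihood test. For degradable PEG against Matrigel it was -0.33 ± 0.131 (interval -0.62 to -0.045, adjusted p = 0.127 by edgeR), and it passed under 3 of 17 alternatives, without degradable PEG replicate 1 (0.0310), without the filter on low counts (0.0327) and with the replicate block (0.00949). Non-degradable against degradable PEG gave 0.36 ± 0.131 (interval 0.067 to 0.64, adjusted p = 0.252), and this passed under 1 of 17 alternatives, the replicate block (0.0230).

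Lgr4 (ENSMUSG00000050199, chromosome 2, 109917647 to 110014257, plus strand), the relative of Lgr5 that is expressed more widely in the crypt, was the more abundant receptor. Lgr4 stood at 383, 352 and 387 CPM in non-degradable PEG, 330.2, 252 and 336 CPM in degradable PEG and 388, 363 and 411 CPM in Matrigel. All degradable PEG libraries lay below all libraries of the other matrices. The log2 fold change was -0.05 ± 0.105 for non-degradable PEG against Matrigel (interval -0.28 to 0.18, adjusted p = 0.790 by edgeR) and -0.34 ± 0.105 for degradable PEG against Matrigel (interval -0.57 to -0.11, adjusted p = 0.0576). The second passed under 5 of 17 alternatives, namely by DESeq2 (adjusted p = 0.0262) and by edgeR without degradable PEG replicate 1 (0.0386), without the filter on low counts (0.0121), without scaling factors (0.0463) and with the replicate block (0.0103). Between the PEG gels it was 0.29 ± 0.105 (interval 0.061 to 0.52, adjusted p = 0.240). Per kb of exon, Lgr4 stood 3.30 ± 0.133 times as high as Lgr5 in non-degradable PEG, 3.46 ± 0.311 times in degradable PEG and 3.50 ± 0.462 times in Matrigel (SD, n = 3 each), so the ratio of the receptors differed between matrices by less than its spread in Matrigel. The size of the ratio depends on the length used, all annotated exons merged, which was 10264 bases for Lgr5 and 5884 bases for Lgr4.

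The transcription factors of the set rose in both PEG gels. Ascl2 (ENSMUSG00000009248, chromosome 7, 142966829 to 142969264, minus strand) is a basic helix-loop-helix factor and Wnt target needed to maintain Lgr5+ stem cells. Ascl2 stood at 27.7, 24.1 and 25.9 CPM in non-degradable PEG, 27.6, 32.2 and 27.0 CPM in degradable PEG and 13.5, 14.9 and 17.5 CPM in Matrigel. The lowest PEG library lay above the highest Matrigel library. Against Matrigel, Ascl2 in non-degradable PEG was 1.69-fold higher, a log2 fold change of 0.76 ± 0.111 (adjusted p = 0.00117 by edgeR), and 1.89-fold higher in degradable PEG, 0.92 ± 0.111 (adjusted p = 4.84e-04). The PEG gels overlapped (log2 fold change -0.16 ± 0.110, interval -0.40 to 0.082, adjusted p = 0.525).

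Sox9 (ENSMUSG00000000567, chromosome 11, 112782224 to 112787760, plus strand), a factor of crypt progenitors that Paneth cells also make and need, had its highest values in degradable PEG. Sox9 stood at 216, 240.2 and 260.2 CPM in non-degradable PEG, 286, 318 and 291 CPM in degradable PEG and 199, 183 and 175 CPM in Matrigel, and no pair of matrices overlapped. Against Matrigel, its level in non-degradable PEG was 1.29-fold higher, a log2 fold change of 0.36 ± 0.0844 (adjusted p = 0.0147 by edgeR). That call was lost without non-degradable PEG replicate 3 (adjusted p = 0.0677), Matrigel replicate 2 (0.0529) or Matrigel replicate 3 (0.0621), all by edgeR. Against Matrigel, Sox9 was 1.61-fold higher in degradable PEG, 0.69 ± 0.0846 (adjusted p = 5.26e-04). For non-degradable against degradable PEG its log2 fold change was -0.32 ± 0.0843 (interval -0.51 to -0.14, adjusted p = 0.105).

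The secreted markers fell, Smoc2 in both PEG gels and Olfm4 in non-degradable PEG. Smoc2 (ENSMUSG00000023886, chromosome 17, 14279506 to 14404790, plus strand) encodes a calcium-binding matricellular protein of the crypt base. With 1171, 1240.4 and 1059.9 CPM in non-degradable PEG, 1419.9, 1415 and 1323 CPM in degradable PEG and 1944, 1901 and 1987 CPM in Matrigel, Smoc2 was the most abundant of the markers. Its rank among all genes by CPM ran from 33 to 50 in non-degradable PEG, from 28 to 32 in degradable PEG and from 18 to 19 in Matrigel. No pair of matrices overlapped. Smoc2 in non-degradable PEG was 0.595 times its Matrigel level, a log2 fold change of -0.75 ± 0.0725 (adjusted p = 1.42e-04 by edgeR), and in degradable PEG 0.713 times, -0.49 ± 0.0723 (adjusted p = 0.00146). The PEG gels differed by -0.26 ± 0.0722 (interval -0.42 to -0.10, adjusted p = 0.127).

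Olfm4 (ENSMUSG00000022026, chromosome 14, 79984081 to 80023139, plus strand), which encodes a secreted glycoprotein and is a Notch-dependent marker of crypt base columnar cells, varied most within a matrix. Olfm4 stood at 33.7, 17.3 and 32.0 CPM in non-degradable PEG, 42.8, 29.6 and 41.3 CPM in degradable PEG and 87.1, 42.4 and 65.7 CPM in Matrigel. Replicate 2 was the lowest in each matrix, and Matrigel replicate 2 lay within the range of degradable PEG but above all of non-degradable PEG. Olfm4 in non-degradable PEG was 0.426 times its Matrigel level, a log2 fold change of -1.23 ± 0.279 (adjusted p = 0.0129 by edgeR). In degradable PEG the log2 fold change was -0.78 ± 0.275 (interval -1.38 to -0.17, adjusted p = 0.0916), and it passed under 4 of 17 alternatives, without Matrigel replicate 2 (adjusted p = 0.0337 by edgeR) or non-degradable PEG replicate 2 (0.0490), without the filter on low counts (0.0033) and with the replicate block (0.00127). The fit between the PEG gels gave -0.45 ± 0.279 (interval -1.06 to 0.16, adjusted p = 0.477), and this passed under 1 of 17 alternatives, the replicate block (0.0367). Exons of Olfm4 share 153 bases, 5.17% of their length, with Gm6999 on the same strand, which had no count in any library. Ascl2 over Olfm4, per kb of exon, was 1.5, 2.54 and 1.48 in non-degradable PEG. It was 1.18, 1.98 and 1.19 in degradable PEG and 0.283, 0.640 and 0.485 in Matrigel, so in each PEG library Ascl2 stood above Olfm4 and in each Matrigel library below it.

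The membrane proteins showed smaller differences. Rgmb (ENSMUSG00000048027, chromosome 17, 15803188 to 15831039, minus strand) encodes a BMP co-receptor, and it fell in non-degradable PEG. Rgmb stood at 144, 132 and 135 CPM in non-degradable PEG, 187, 158 and 164 CPM in degradable PEG and 184, 156 and 166 CPM in Matrigel. Non-degradable PEG lay below all libraries of the other matrices, which overlapped with each other. The log2 fold change was -0.30 ± 0.0843 for non-degradable PEG against Matrigel (adjusted p = 0.0337 by edgeR). This call was lost in 5 of the 9 fits that left out a library, namely without non-degradable PEG replicate 1 (0.0539), 2 (0.0943) or 3 (0.107) and without Matrigel replicate 1 (0.124) or 3 (0.0655). Degradable PEG against Matrigel gave 0.0084 ± 0.0842 (interval -0.18 to 0.19, adjusted p = 0.963), and non-degradable against degradable PEG gave -0.31 ± 0.0844 (interval -0.49 to -0.12, adjusted p = 0.127).

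Tnfrsf19 (ENSMUSG00000060548, chromosome 14, 60963875 to 61046490, minus strand), also called Troy, encodes a receptor of the TNF receptor family that associates with Lgr5. Tnfrsf19 stood at 103, 103 and 107 CPM in non-degradable PEG, 112, 91.7 and 124 CPM in degradable PEG and 113, 143 and 163 CPM in Matrigel. Non-degradable PEG lay below all Matrigel libraries, while degradable PEG overlapped with Matrigel. Its log2 fold change of -0.42 ± 0.132 for non-degradable PEG against Matrigel missed the threshold (interval -0.71 to -0.13, adjusted p = 0.0514 by edgeR). With the replicate number as a block it was -0.41 and passed (adjusted p = 0.0254 by edgeR), as it did without Matrigel replicate 1 (0.0138) or degradable PEG replicate 1 (0.0468), 2 (0.0283) or 3 (0.0452). It also passed by DESeq2 (0.0209) and by edgeR without the filter on low counts (0.00554), without scaling factors (0.0399) and with only the 2 matrices compared (0.0298), 9 of 17 alternatives in all. For degradable PEG against Matrigel it was -0.35 ± 0.132 (interval -0.64 to -0.064, adjusted p = 0.109), and it passed without Matrigel replicate 1 (0.0316) or without the filter on low counts (0.0252). Between the PEG gels the log2 fold change was -0.06 ± 0.132 (interval -0.35 to 0.23, adjusted p = 0.846).

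Lrig1 and Msi1 did not pass the threshold in any of the 3 comparisons. Lrig1 (ENSMUSG00000030029, chromosome 6, 94604529 to 94700158, minus strand), a membrane protein that restrains ErbB receptors, stood at 413, 388 and 417 CPM in non-degradable PEG, 424, 349.7 and 403 CPM in degradable PEG and 368, 362 and 392 CPM in Matrigel. Its log2 fold changes were 0.12 ± 0.0794 (interval -0.056 to 0.29) and 0.07 ± 0.0794 (-0.11 to 0.24) for non-degradable and degradable PEG against Matrigel, and 0.05 ± 0.0794 (-0.12 to 0.22) between the PEG gels. Lrig1 exons share 144 bases, 2.58% of their length, with Slc25a26 on the opposite strand, so a small part of its count is uncertain where counting ignored strand. Msi1 (ENSMUSG00000054256, chromosome 5, 115429599 to 115455698, plus strand), an RNA-binding protein that represses translation of Notch inhibitors, stood at 129.9, 114 and 97.9 CPM in non-degradable PEG, 155, 142 and 119.7 CPM in degradable PEG and 131, 120.2 and 119 CPM in Matrigel. Its log2 fold changes were -0.11 ± 0.113 (interval -0.36 to 0.13) and 0.17 ± 0.113 (-0.078 to 0.42) against Matrigel and -0.28 ± 0.113 (-0.53 to -0.036) between the PEG gels. Libraries overlapped in each comparison of these 2 genes, and the adjusted p ran from 0.284 to 0.798 by edgeR.

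The contrast between the PEG gels, which differ in whether cells can degrade them, is also the test of whether the changes against Matrigel differ. No marker passed it by edgeR's main fit, and those with an unadjusted p under 0.05 were Lgr5, Lgr4, Smoc2, Rgmb, Sox9 and Msi1, at a threshold that 14.8% of tested genes met. With the replicate block, edgeR called Lgr5, Olfm4 and Rgmb (adjusted p = 0.0230, 0.0367 and 0.0211), and without the filter on low counts it called Sox9. Both of these fits also called more of all genes than the main fit. DESeq2 called Smoc2, Rgmb and Sox9 lower in non-degradable PEG, with adjusted p of 0.0218, 0.0382 and 0.0206, where it called 1.28% of tested genes lower. Lgr4 was the only marker with every non-degradable PEG library above every degradable PEG library, and Smoc2, Rgmb and Sox9 had every one below.

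Levels can be compared between genes only per kb of exon, here all annotated exons merged, which can be longer than the transcript made. On that scale Smoc2 came first in each matrix, with a mean of 166 ± 13.1 CPM per kb in non-degradable PEG, 199 ± 7.86 in degradable PEG and 279.7 ± 6.13 in Matrigel (SD, n = 3 each), and no other marker overlapped with it. Lrig1, Lgr4 and Sox9 followed in each matrix. Their order was Lrig1, Lgr4, Sox9 in non-degradable PEG, with Lgr4 and Sox9 overlapping, Sox9, Lrig1, Lgr4 in degradable PEG, with Sox9 and Lrig1 overlapping, and Lrig1, Lgr4, Sox9 in Matrigel, with Lrig1 and Lgr4 overlapping. Sox9 thus held place 4 in non-degradable PEG, 2 in degradable PEG and 4 in Matrigel. The other 6 markers had means of 9.34 to 22.1 CPM per kb in non-degradable PEG, 12.8 to 23.9 in degradable PEG and 9.42 to 29.4 in Matrigel, with many neighbours overlapping. Olfm4 was the lowest in both PEG gels, overlapping with Lgr5 in degradable PEG, and Ascl2 was the lowest in Matrigel, below Lgr5 without overlap.

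**Figure D3:**
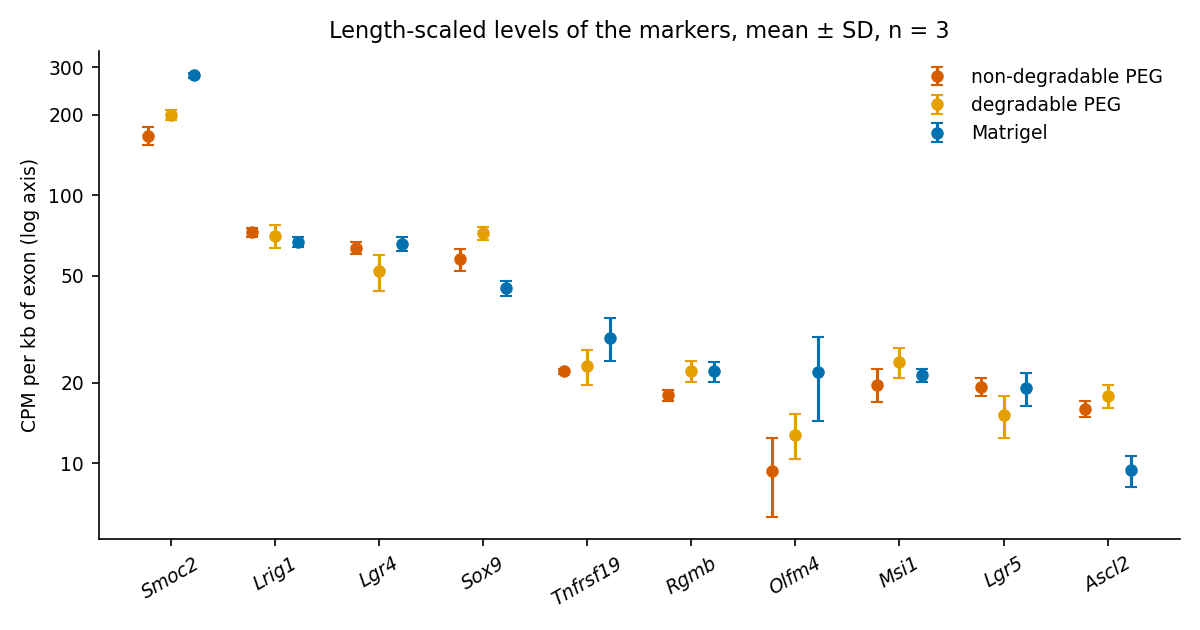
Level of each marker per kb of exon (vertical log axis, CPM per kb) in non-degradable PEG, degradable PEG and Matrigel, as the mean and SD of 3 libraries, with genes in the order of their Matrigel level. Smoc2 stands above 150 CPM per kb in each matrix, and Olfm4 and Ascl2 change places at the low end.

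The markers varied by different amounts within a matrix. Olfm4 had the highest coefficient of variation of the 10 in each matrix, 32.7% in non-degradable PEG, 19.1% in degradable PEG and 34.4% in Matrigel. Smoc2 had 7.87%, 3.94% and 2.19% in the same order. Across the 9 libraries, likeness was taken as the root mean square difference of centred log2 CPM, where 0 means the same profile. Lgr5 and Lgr4 were the closest pair at 0.119, followed by Rgmb and Msi1 at 0.135, and Ascl2 and Olfm4 were the furthest apart at 0.962. The Ascl2 and Sox9 pair had 0.236. These distances describe 9 libraries that share their matrices and carry no test. They also grow with a gene's own spread, so markers that vary little are close by this measure whatever their pattern.

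Among all tested genes, the profiles nearest to Lgr5 were those of the predicted genes Gm1976, at 0.0571, and Gm6266, at 0.0657, and of Atp8b1, a phospholipid flippase, at 0.0723. Gm6266 had few reads, with means of 0.306 CPM in non-degradable PEG, 0.240 CPM in degradable PEG and 0.322 CPM in Matrigel. Atp8b1 had 335 ± 10.9 CPM in non-degradable PEG, 269 ± 41.8 CPM in degradable PEG and 315 ± 30.3 CPM in Matrigel (SD, n = 3 each). Nearest to Ascl2 were Plekhd1os at 0.124, Mdfi, an inhibitor of myogenic transcription factors, at 0.125, and Fkbp7, a peptidyl-prolyl isomerase, at 0.129. Mdfi had 7.35 ± 0.693 CPM in non-degradable PEG, 8.81 ± 0.226 CPM in degradable PEG and 4.93 ± 0.191 CPM in Matrigel. Near to Olfm4 were the granule protein gene Chga at 0.248 and the Wnt ligand gene Wnt9b at 0.260. No gene came as near to Olfm4 as Gm1976 came to Lgr5, but Olfm4 itself varied more. Its root mean square around its own mean was 0.633, beside 0.233 for Lgr5. Chga had 0.9997 ± 0.297 CPM in non-degradable PEG, 1.60 ± 0.118 CPM in degradable PEG and 3.30 ± 0.889 CPM in Matrigel.

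Genes around the markers were read from lists chosen by role. Among 25 further genes of the crypt base signature, 24 were tested. Against Matrigel, 3 rose and 8 fell in non-degradable PEG, with a median log2 fold change of -0.20, and 2 rose and 4 fell in degradable PEG, with a median of -0.084. The median of all tested genes was -0.0021 and -0.016 in these comparisons. With the non-degradable gel, 9.71% of all tested genes rose against Matrigel and 7.13% fell. With the degradable gel, 7.42% rose and 4.79% fell. These shares are the background for the counts of this list and of each list below. Whether the counts of a list depart from them was not tested. Fstl1, a secreted follistatin-like protein, averaged 7.22 CPM in non-degradable PEG and 14.9 CPM in Matrigel (log2 fold change -1.05 ± 0.135, adjusted p = 5.54e-04 by edgeR), and 9.91 CPM in degradable PEG (-0.59 ± 0.133, adjusted p = 0.0144, but 0.0563 without Matrigel replicate 3). Slc14a1, a urea transporter, averaged 0.919 CPM in non-degradable PEG, 1.97 CPM in degradable PEG and 4.86 CPM in Matrigel, with log2 fold changes of -2.41 ± 0.369 and -1.30 ± 0.342 (adjusted p = 0.00152 and 0.0303). The second was lost without degradable PEG replicate 3 (adjusted p = 0.0549 by edgeR) or without Matrigel replicate 1 (0.0728), 2 (0.0842) or 3 (0.0635). The chloride channel regulator gene Clca3b averaged 568 CPM in non-degradable PEG, 1068 CPM in degradable PEG and 996 CPM in Matrigel. Its change passed against Matrigel only for non-degradable PEG (-0.81 ± 0.140, adjusted p = 0.00306) and also between the PEG gels (-0.91 ± 0.140, adjusted p = 0.0152, but 0.0596 without degradable PEG replicate 2).

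Of 17 genes of R-spondin and Wnt reception, 13 were tested. In non-degradable PEG 1 rose and in degradable PEG 2 did, with medians of 0.05 and -0.0089 on the log2 scale. By edgeR 0 fell in either gel, 1 in each had an unadjusted p under 0.05 on the low side, and DESeq2 called 1 lower in non-degradable PEG but 0 in degradable PEG. The ubiquitin ligase Rnf43, which removes Wnt receptors and is itself a Wnt target, averaged 349 CPM in non-degradable PEG, 405 CPM in degradable PEG and 309 CPM in Matrigel. Its log2 fold change was 0.17 ± 0.105 for non-degradable PEG against Matrigel (adjusted p = 0.285 by edgeR) and 0.39 ± 0.106 for degradable PEG against Matrigel (adjusted p = 0.0357). This call was lost with only the 2 matrices compared (adjusted p = 0.0502 by edgeR) and without non-degradable PEG replicate 1 (0.0519), degradable PEG replicate 2 (0.0552) or 3 (0.1096) or Matrigel replicate 1 (0.112) or 2 (0.0896). The Wnt receptor gene Fzd8 averaged 6.05 CPM in non-degradable PEG, 5.78 CPM in degradable PEG and 3.94 CPM in Matrigel and passed against Matrigel in both (0.62 ± 0.159 and 0.55 ± 0.159, adjusted p = 0.0231 and 0.0451). These calls were lost in 5 and 6 of the 9 fits that left out a library, among them any fit without a Matrigel library, with adjusted p up to 0.102 and 0.155.

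Wnt feedback targets went both ways. Of 11 listed, 10 were tested, of which 1 rose and 4 fell in non-degradable PEG and 2 rose and 3 fell in degradable PEG, at medians of -0.16 and 0.087 against Matrigel. Myc averaged 271 CPM in non-degradable PEG, 336 CPM in degradable PEG and 127 CPM in Matrigel, with log2 fold changes of 1.10 ± 0.143 and 1.41 ± 0.144 (adjusted p = 6.04e-04 and 2.12e-04 by edgeR). Nkd1, an inhibitor of Dishevelled, averaged 21.5 CPM in non-degradable PEG, 24.7 CPM in degradable PEG and 43.3 CPM in Matrigel (-1.01 ± 0.117 and -0.81 ± 0.116, adjusted p = 2.95e-04 and 0.00121). Axin2, the scaffold of the beta-catenin destruction complex, averaged 461 CPM in non-degradable PEG, 656 CPM in degradable PEG and 568 CPM in Matrigel. It fell in non-degradable PEG against Matrigel (-0.30 ± 0.0880, adjusted p = 0.0394) and against degradable PEG (-0.51 ± 0.0881, adjusted p = 0.0241). The call against Matrigel was lost without any 1 of the 3 non-degradable PEG or 3 Matrigel libraries (adjusted p 0.0593 to 0.122 by edgeR). The call against degradable PEG was lost without non-degradable PEG replicate 1 (0.0909) or 2 (0.0729) or degradable PEG replicate 1 (0.0504) or 3 (0.0595).

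Of 8 markers of reserve or injury-revived stem cells, 3 rose in non-degradable PEG, 4 rose in degradable PEG and 0 fell, at medians of 0.37 and 0.39. On the low side 1 gene in each gel had an unadjusted p under 0.05 by edgeR, and DESeq2 called 1 lower in each. By edgeR the gene in non-degradable PEG was Bmi1, a reserve stem cell marker named after its values were seen. Bmi1 averaged 75.3 CPM in non-degradable PEG, 75.6 CPM in degradable PEG and 102 CPM in Matrigel. Its log2 fold change in non-degradable PEG was -0.44 ± 0.137 (adjusted p = 0.0502 by edgeR). Clu, clusterin, a marker of revival stem cells, averaged 63.7 CPM in non-degradable PEG, 61.9 CPM in degradable PEG and 20.8 CPM in Matrigel (log2 fold change 1.61 ± 0.183 and 1.57 ± 0.183, adjusted p = 2.69e-04 and 3.73e-04 by edgeR). Ly6a, also called Sca-1, averaged 96.8 CPM in non-degradable PEG, 107 CPM in degradable PEG and 27.2 CPM in Matrigel (1.83 ± 0.296 and 1.96 ± 0.297, adjusted p = 0.00214 and 0.00162). Krt19, a keratin of crypt progenitors, averaged 747 CPM in non-degradable PEG, 716 CPM in degradable PEG and 465 CPM in Matrigel (0.68 ± 0.103 and 0.62 ± 0.103, adjusted p = 0.00137 and 0.00265). The PEG gels overlapped for Clu, Ly6a and Krt19.

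Notch genes were listed because Olfm4 depends on Notch. All 11 were tested, of which 3 rose and 2 fell in non-degradable PEG and 2 rose and 1 fell in degradable PEG, at medians of 0.081 and -0.020. Hes1, a direct Notch target, averaged 139 CPM in non-degradable PEG, 206 CPM in degradable PEG and 68.1 CPM in Matrigel (log2 fold change 1.03 ± 0.155 and 1.60 ± 0.156, adjusted p = 0.00135 and 1.61e-04 by edgeR). Means of Olfm4 were lower in both PEG gels, and a link between Hes1 and Olfm4 was not tested. Called ligands went both ways. The ligand Dll1 averaged 27.1 CPM in non-degradable PEG, 36.1 CPM in degradable PEG and 41.4 CPM in Matrigel and fell in non-degradable PEG (-0.61 ± 0.106, adjusted p = 0.00307). Jag2, another ligand, averaged 26.7 CPM in non-degradable PEG, 24.8 CPM in degradable PEG and 15.4 CPM in Matrigel. It rose in both PEG gels (0.79 ± 0.186 and 0.68 ± 0.187, adjusted p = 0.0155 and 0.0359 by edgeR). Both Jag2 calls were lost in some fits that left out a library, with adjusted p up to 0.0670 and 0.131. Of 19 relatives of the markers in their gene families, 10 were tested, and 2, Olfm1 and Rgma, fell in each PEG gel by edgeR. On the high side 0 passed by edgeR in either gel, 0 had an unadjusted p under 0.05 in non-degradable PEG but 1 in degradable PEG, and DESeq2 called 0 in the non-degradable gel and 1 in the degradable gel. Olfm1 averaged 5.17 CPM in non-degradable PEG, 5.44 CPM in degradable PEG and 11.7 CPM in Matrigel. Rgma averaged 1.24 CPM in non-degradable PEG, 1.63 CPM in degradable PEG and 3.21 CPM in Matrigel, and its call in degradable PEG was lost without degradable PEG replicate 1 (adjusted p = 0.0584 by edgeR) or 2 (0.0804) or Matrigel replicate 3 (0.106).

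**Figure D4:**
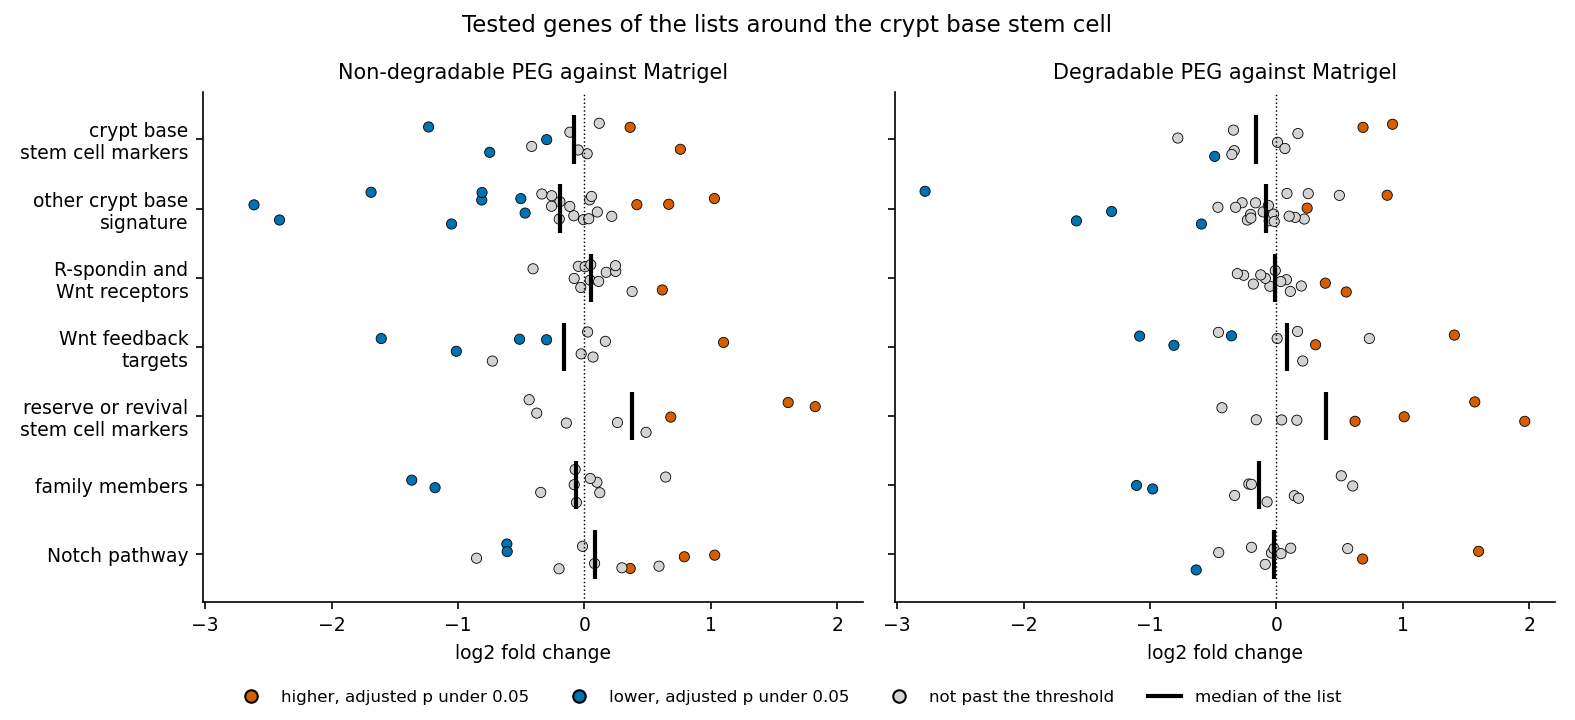
Log2 fold change of each tested gene (horizontal axes) against Matrigel for non-degradable PEG (left) and degradable PEG (right), in 7 lists, with the list's median as a black bar and genes past an adjusted p of 0.05 in orange (higher) or blue (lower). Most lists hold points on both sides of 0, and the reserve or revival stem cell markers have called genes on the high side only.

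Markers of differentiated and cycling cells were measured in the same libraries. Paneth cell markers, 9 genes all detected in each matrix, summed to 313 to 499.8 CPM in non-degradable PEG, 367 to 405 CPM in degradable PEG and 846 to 1692 CPM in Matrigel, and 7 of 9 were lower in each PEG gel. Mmp7, a protease that activates Paneth cell defensins, was higher in degradable PEG, with a mean of 29.8 CPM there and 17.2 CPM in Matrigel (log2 fold change 0.79 ± 0.209, adjusted p = 0.0311 by edgeR). This call was lost without degradable PEG replicate 1 (0.0693) or Matrigel replicate 2 (0.108) or 3 (0.105). The Paneth sum and the enterocyte sum were lowest in replicate 2 of each matrix, as Olfm4 was. In degradable PEG the enterocyte sums of replicates 2 and 3 were nearly equal, at 65.26 and 65.32 CPM. Goblet markers, 8 genes, summed to 190.0 to 258 CPM in non-degradable PEG, 136 to 199.6 CPM in degradable PEG and 575 to 1052 CPM in Matrigel. Fcgbp and Tff3 made up most of the mean sum in each matrix, averaging 539 and 170 CPM in Matrigel. Of the 8 goblet markers, 5 passed as lower than Matrigel for the degradable gel by edgeR. Only 4 did so for the non-degradable gel, where Clca1 lay on the high side without passing (log2 fold change 0.33 ± 0.453). Enteroendocrine markers, 8 genes, summed to 17.9 to 24.1 CPM in non-degradable PEG, 24.9 to 35.8 CPM in degradable PEG and 90.1 to 150.3 CPM in Matrigel. Tuft markers, 6 genes, summed to 3.44 to 3.96 CPM in non-degradable PEG, 3.44 to 4.87 CPM in degradable PEG and 8.43 to 10.1 CPM in Matrigel. Of the 3 tested, 2 were lower in each PEG gel, the tuft lineage factor Pou2f3 (log2 fold change -1.17 in non-degradable and -1.27 in degradable PEG) and the channel gene Trpm5 (-3.24 and -2.77), and Il25, a tuft cell product, had no count in any library. Enterocyte markers summed to 133 to 181 CPM in non-degradable PEG, 65.3 to 102 CPM in degradable PEG and 160.2 to 248 CPM in Matrigel. Of these 8, 4 were higher in non-degradable than in degradable PEG, where 0.814% of tested genes were. All 4 calls were lost without non-degradable PEG replicate 1 (adjusted p 0.0594 to 0.0829 by edgeR) or degradable PEG replicate 2 (0.0827 to 0.117). For non-degradable PEG against Matrigel, 2 enterocyte markers rose and 2 fell, and 4 fell for degradable PEG. Cycling cell markers, 8 genes, summed to 1948 to 2410 CPM in non-degradable PEG, 2247 to 2694 CPM in degradable PEG and 2711 to 3017 CPM in Matrigel. Against Matrigel, 6 of 8 were lower in non-degradable PEG. In degradable PEG 0 passed by edgeR or DESeq2 and 3 had an unadjusted p under 0.05. The median log2 fold changes were -0.35 and -0.19. Between the PEG gels 0 of 8 passed by edgeR, 3 had an unadjusted p under 0.05 on the low side, and DESeq2 called 1 lower in non-degradable PEG. The part of these cells in the results for Olfm4, Smoc2, Rgmb, Ascl2 and Sox9 was not tested.

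**Figure D5:**
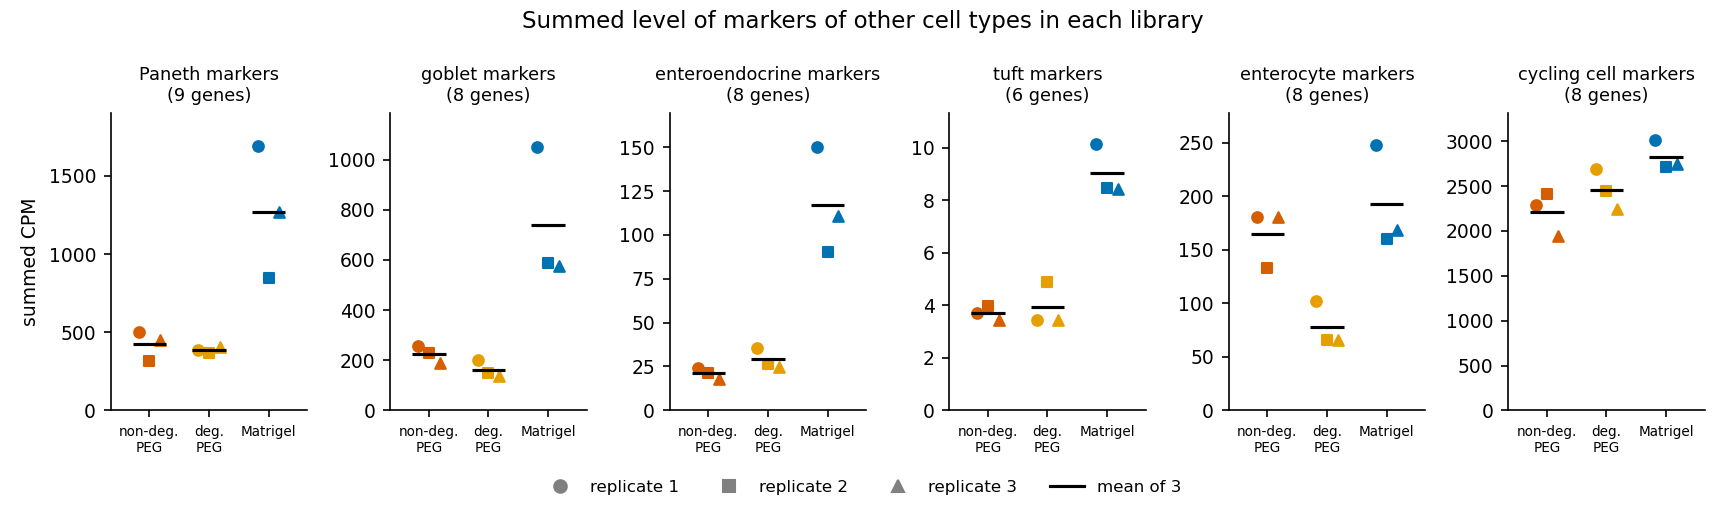
Summed level of the markers of 6 other cell types or states (vertical axes, CPM, from 0) in each library of non-degradable PEG, degradable PEG and Matrigel, with the mean of 3 libraries as a bar and the replicate number as the point's shape. The Paneth, goblet, enteroendocrine, tuft and cycling cell sums of every PEG library lie below those of every Matrigel library, the cycling cell sums by a narrow gap, while the enterocyte sums of non-degradable PEG and Matrigel overlap.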

How the data were processed

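The input was 9 tables of read counts per gene, deposited by the authors, 1 per library. The tools named in the submitters' processing notes are cutadapt 1.3 for trimming, STAR 2.4.2a for alignment and HTSeq 0.6.1 for counting, on GRCm38. Extraction used the RNeasy Micro kit, and the library kit was Illumina's stranded TruSeq for mRNA, per the labels' protocols. Which annotation and strand setting the counting used is not given in the sources used here. The 5 tally rows of each table were taken out, and reads without a feature were 7.29% to 11.2% of a library.

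Symbols and coordinates came from GENCODE M21 and matched 46005 of 46517 genes. edgeR's filterByExpr kept 14870 genes. A quasi-likelihood fit over all 9 libraries, with TMM scaling and 1 mean per matrix, left 6 residual degrees of freedom, and the standard errors of log2 fold changes had a median of 0.112. P-values were adjusted by Benjamini-Hochberg over all tested genes, at a threshold of 0.05. The fit was tried on simulated counts. Standard errors and 95% intervals come from the quasi-likelihood F statistic. CPM used TMM-scaled library sizes, and levels per kb used merged exon length. Promoters came from RefSeq on GRCm38.p6.

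The markers and gene lists were chosen with earlier results of these data known. All 10 markers are named, and of each other list at most the 3 changed genes with the smallest p. Other listed genes that are named, such as Bmi1, were chosen after their values were seen. For Lgr5, Ascl2 and Olfm4 the 3 genes of nearest profile were taken, of which 1 is not reported here. Replicate numbers in the labels were checked for pairing by the correlation of deviations from the matrix means, which was 0.331, 0.176 and 0.186 for same-numbered libraries of non-degradable PEG and Matrigel. By this measure the numbers paired these 2 matrices, though no label says what a number shares. The main fit had no replicate block, so calls are unpaired unless the block is named. With the replicate block, 3877 genes changed against 2504 without it. Alternatives were other scalings, other filters, the replicate block, only the 2 matrices compared, DESeq2 and each library left out in turn. The software was edgeR 4.0.16, DESeq2 1.42.0 and limma 3.58.1 under R 4.3.3.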

Additional observations from a re-analysis of the deposited data

How the results depend on the processing

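Of 510 results for single markers, each recomputed under 17 alternatives per comparison, 463 kept their direction and their side of the threshold, 30 newly passed it, 8 no longer passed and 9 changed sign, all 9 near 0. Ascl2 and Smoc2 against Matrigel passed under all 17 alternatives in both PEG gels, Sox9 in degradable PEG and Olfm4 in non-degradable PEG likewise. Other scalings moved the median of all genes by at most 0.0414 on the log2 scale.

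For non-degradable PEG against Matrigel, 2504 genes changed. The count was 1511 with a minimum mean of 10 CPM, which tests fewer genes, 3877 with the replicate block, and 1189 to 3247 when a library was left out, with 1656 and 1189 without non-degradable PEG replicates 1 and 3 and 1452 and 1636 without Matrigel replicates 1 and 2. The markers called numbered 6 with the block and 3 to 6 with a library left out. For degradable PEG against Matrigel, 1815 genes changed, against 948 with a mean of at least 10 CPM, 2783 with the replicate block and 1086 to 2395 with a library left out (1178 without degradable PEG replicate 3, 1086 and 1177 without Matrigel replicates 1 and 3). Called markers numbered 7 with no filter, 6 with the block and 3 to 5 with a library left out. How many of all genes changed with no filter is not given here for this comparison, so no share stands beside the 7. Between the PEG gels 190 genes changed, against 521 with no filter, 91 with a mean of at least 10 CPM, 542 with the block, 509 with DESeq2 and 19 to 242 with a library left out (28 and 124 without non-degradable PEG replicates 1 and 2, 117 and 19 without degradable PEG replicates 1 and 2). Called markers numbered 1 with no filter (Sox9), 3 with the block (Lgr5, Olfm4 and Rgmb), 3 with DESeq2 and 0 with any library left out. The cause of these shifts was not tested.

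Changes of sign were found with a library left out for Lgr5 in non-degradable PEG against Matrigel (-0.054 to 0.14), Rgmb in degradable PEG against Matrigel (-0.065 to 0.077, and -0.0042 with no filter), and between the PEG gels for Tnfrsf19 (-0.18 to 0.037) and Lrig1 (-0.032 to 0.10).

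Same-numbered libraries of degradable PEG and Matrigel had correlated deviations of 0.258, 0.0712 and 0.226, and those of the PEG gels 0.288, 0.0197 and 0.511, so the numbers did not pair these matrices by the rule used. Over all 9 libraries, 8 correlated best with their own number in both other matrices, a hint from the data and not from the design. Beside Tnfrsf19 in non-degradable PEG against Matrigel and the calls listed here, the block changed the calls of Lgr5, Lgr4 and Olfm4 in degradable PEG against Matrigel, which then passed. Depth limits no marker, since the lowest count of any marker in a library was 528.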

Other observations

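Replicate 2 was the lowest library in all 3 matrices for 5 of the 10 markers, Lgr5, Lgr4, Olfm4, Rgmb and Lrig1. Among the 14870 tested genes, 712 had this pattern, 4.79%. Replicate 1 was the lowest in all 3 matrices for 0 markers and for 8.57% of tested genes, and replicate 3 for 1 marker, Msi1, and for 9.0% of tested genes. The labels do not say what libraries with the same number share, and this pattern was noticed after the values were seen.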
